A study of Mus musculus with 27 samples.

Results

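The tail bud and the hindlimb bud (HLB) of the mouse embryo at E10.5 were compared by RNA-seq, as 2 posterior outgrowths of one stage. The comparison used 5 of the 27 libraries of the series, 3 of the tail bud and 2 of the HLB, which were chosen by the tissue and age given in the sample labels. All 5 were made from embryonic tissue of the strain Slc:ICR, amputated from embryos with no sorting step given, and with no genetic change or treatment given for either tissue. The rest of the series comprises branchial arch, heart, forelimb buds, earlier HLBs and limb bud organoids grown from mouse embryonic stem cells, against which the embryonic tissues served as references. The sources used here do not say whether a library was made from 1 embryo or from a pool. The p-values therefore measure the spread between these libraries, which may be technical.

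Library 2 of the E10.5 HLB was left out. Of genes over 2 CPM in HLB libraries 1 and 3, it lists 99.5% to 100% at 0 on each of chromosomes 5, 6, 7, 8, 9, X and Y, and also a run of genes at the far end of chromosome 4. In all, 58.6% of its genes are at 0. Read totals were recovered from the steps between low values within a library. They came to 7616787 to 8443180 reads in the tail bud libraries and 5648200 and 5732817 in HLB libraries 1 and 3. A count of 3 reads, taken as the lowest level that can be told from 0, corresponds to at most 0.552 CPM after scaling in the libraries compared, where CPM is the share of a gene in the counted reads of a library, set to a fixed total. Floors and the intervals named as counting intervals cover counting error only, because reads of amplified libraries are not independent molecules. The 95% intervals of log2 fold changes come from the limma fit and the spread between libraries. Values are scaled CPM. Each set of 5 gives tail bud libraries 1, 2 and 3 first, and HLB libraries 1 and 3 after the word against. CPM is not divided by transcript length, so levels were compared between tissues and not between genes.

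The tail bud is the growth zone at the posterior end of the embryo. It holds progenitors of the spinal cord and of the paraxial mesoderm, which pass into the presomitic mesoderm, where oscillating Notch, Wnt and FGF signals divide it into somites. The limb bud grows from the lateral plate mesoderm beside it, as mesenchyme covered by ectoderm, and its outgrowth depends on a loop between FGF8 from the apical ectodermal ridge and FGF10 from the mesenchyme. Pitx1 and Tbx4 are the transcription factor genes known to distinguish the HLB from the forelimb bud. Both outgrowths use T-box factors, posterior Hox genes, FGFs, Wnts and retinoic acid breakdown.

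Promoters of 7 genes that separate the tissues are shown first, because T, Msgn1, Sp5, Mesp1 and Ripply2 are textbook targets of Wnt or T-box signalling in the tail bud and Lhx9 and Shox2 are limb genes measured as near 0 in the tail bud. The sequences are the RefSeq promoters of GRCm38.p6, from 250 bases before to 50 bases after the annotated gene start, written 5′ to 3′ on the strand of the gene. The RefSeq start used for Lhx9 lies inside the gene as GENCODE annotates it, so an upstream start is not shown. Capitals mark the letters CTTTGA or CTTTGT on either strand, the core bound by TCF/LEF factors of the Wnt pathway, in T, Msgn1, Sp5, Lhx9 and Shox2. In Mesp1 and Ripply2 capitals mark GGTGTGA on either strand, the core bound by T-box factors.
T (chr17:8434173-8434472, plus strand): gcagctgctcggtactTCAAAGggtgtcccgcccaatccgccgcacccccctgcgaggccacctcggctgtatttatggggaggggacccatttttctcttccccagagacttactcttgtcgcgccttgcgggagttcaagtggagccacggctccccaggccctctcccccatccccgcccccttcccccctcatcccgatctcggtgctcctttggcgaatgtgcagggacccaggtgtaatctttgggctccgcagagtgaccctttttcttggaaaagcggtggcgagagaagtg
Msgn1 (chr12:11208899-11209198, minus strand): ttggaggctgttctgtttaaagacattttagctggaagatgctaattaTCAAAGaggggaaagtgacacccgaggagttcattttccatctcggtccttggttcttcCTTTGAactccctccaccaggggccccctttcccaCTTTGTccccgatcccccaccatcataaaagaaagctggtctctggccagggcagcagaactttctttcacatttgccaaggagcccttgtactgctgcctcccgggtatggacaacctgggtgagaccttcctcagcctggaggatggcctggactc
Sp5 (chr2:70474673-70474972, plus strand): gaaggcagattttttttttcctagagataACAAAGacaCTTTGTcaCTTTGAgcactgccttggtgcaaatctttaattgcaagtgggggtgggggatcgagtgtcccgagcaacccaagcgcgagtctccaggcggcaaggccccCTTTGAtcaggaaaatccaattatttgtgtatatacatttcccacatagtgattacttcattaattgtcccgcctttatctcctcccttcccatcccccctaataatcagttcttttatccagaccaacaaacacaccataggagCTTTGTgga
Mesp1 (chr7:79793541-79793840, minus strand): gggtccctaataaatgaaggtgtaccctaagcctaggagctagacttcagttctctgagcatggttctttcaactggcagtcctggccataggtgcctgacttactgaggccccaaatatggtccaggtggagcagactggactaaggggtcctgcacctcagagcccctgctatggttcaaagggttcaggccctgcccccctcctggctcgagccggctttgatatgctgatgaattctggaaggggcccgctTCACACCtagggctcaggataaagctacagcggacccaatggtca
Ripply2 (chr9:87015287-87015586, plus strand): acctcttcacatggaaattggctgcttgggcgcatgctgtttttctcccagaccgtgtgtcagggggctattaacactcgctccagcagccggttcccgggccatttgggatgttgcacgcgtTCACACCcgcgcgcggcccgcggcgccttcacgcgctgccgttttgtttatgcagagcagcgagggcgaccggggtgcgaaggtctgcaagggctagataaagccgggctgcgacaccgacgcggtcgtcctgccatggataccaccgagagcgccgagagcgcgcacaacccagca
Lhx9 (chr1:138842395-138842694, minus strand): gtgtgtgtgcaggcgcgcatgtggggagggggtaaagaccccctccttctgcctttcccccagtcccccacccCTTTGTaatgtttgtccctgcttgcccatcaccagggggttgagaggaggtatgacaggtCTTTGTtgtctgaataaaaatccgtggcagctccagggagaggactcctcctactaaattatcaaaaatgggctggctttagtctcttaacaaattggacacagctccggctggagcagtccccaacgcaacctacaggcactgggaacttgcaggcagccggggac
Shox2 (chr3:66981722-66982021, minus strand): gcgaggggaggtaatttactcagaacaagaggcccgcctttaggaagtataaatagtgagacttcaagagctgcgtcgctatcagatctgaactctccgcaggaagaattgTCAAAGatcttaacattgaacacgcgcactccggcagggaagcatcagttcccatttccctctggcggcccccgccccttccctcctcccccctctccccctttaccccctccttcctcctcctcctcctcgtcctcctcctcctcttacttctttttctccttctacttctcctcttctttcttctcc

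The TCF/LEF letters occurred once in T, 3 times in Msgn1 and 5 times in Sp5. They also occurred 2 times in Lhx9 and once in Shox2. In Msgn1 the matches began 202, 143 and 108 bases before the gene start. At least 1 match was present in 31.2% of all 32851 promoters and in 38.9% of the 18 promoters listed for presomitic genes, so letters of this kind are frequent. The share was 23.6% of the 12080 promoters of genes tested. It was 27.9% for genes called higher in the tail bud and 24.5% for those called higher in the HLB. GGTGTGA was present in 3 of those 18 promoters (16.7%), those of Mesp1, Ripply1 and Ripply2, against 3.98% of all promoters, and in 0 of the 18 promoters of limb mesenchyme factors. Among genes called higher in the tail bud it was present in 3.71% of 998 promoters, and among genes tested in 3.31% of 12080. A match to such short letters is a description of the sequence and not a binding site.

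Expression differed broadly between the tissues. Of 13183 genes tested, 1111 (8.43%) were called higher in the tail bud and 316 (2.40%) higher in the HLB, where a call needs a limma adjusted p under 0.05 and at least a 2-fold difference. With the p alone, 5621 genes (42.6%) passed, and for 8078 genes (61.3%) the libraries of the tissues did not overlap, so a bare absence of overlap is common here. Counts of called members in the lists below are to be set beside these shares of all genes tested. The lists were chosen with earlier results of these data known. The median log2 fold change (tail bud minus HLB) over all genes tested was -0.01. Correlation of log2 levels across genes was at least 0.992 between libraries of one tissue and 0.939 to 0.941 between tissues. Each gene kept 3 residual degrees of freedom, and the small p-values rest on a spread that limma shares across genes. Fold changes come from log2(CPM + 0.5), which understates the change of low genes, and where a tissue held at most 3 reads of a gene the fold is given from the reads instead.

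**Figure D1:**
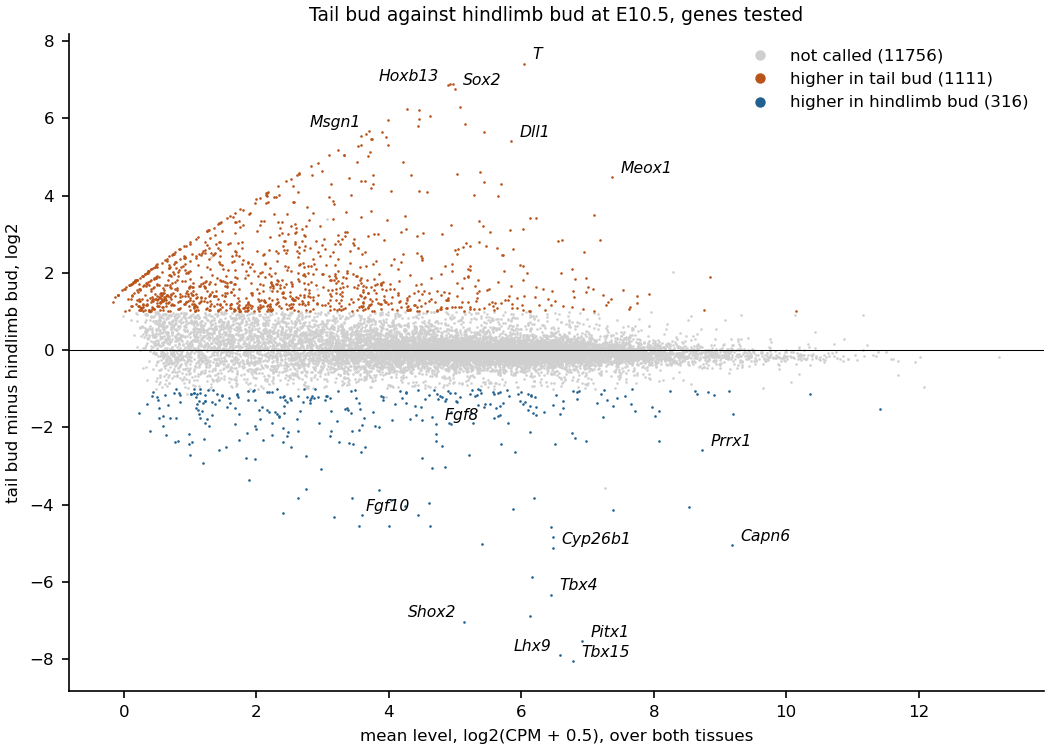
Difference between tail bud and hindlimb bud, as log2 fold change of CPM + 0.5, plotted against the mean level over both tissues for each of the 13183 genes tested. Orange points are the 1111 genes called higher in the tail bud, blue points the 316 called higher in the hindlimb bud, and grey points the others, and T and Tbx15 lie at the 2 ends.

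Labels of both tissues were checked against their markers. T, the T-box factor Brachyury that keeps axial progenitors and the notochord, stood at 122, 138 and 134 CPM against 0.368 and 0.179 CPM. Pitx1, the hindlimb homeobox factor, stood at 1.01, 0.593 and 0.817 CPM against 234 and 246 CPM. Tbx4, a T-box factor of hindlimb outgrowth, stood at 3.68, 0.593 and 1.63 CPM against 170.4 and 173 CPM. Each marker was therefore near 0 in the tissue that should lack it, and the libraries of the tissues were far apart. T was 482-fold (95% counting interval 165 to 2337) higher in the tail bud (limma, adjusted p = 4.0e-32), and Pitx1 was 186-fold higher in the HLB (limma, log2 fold change -7.54 ± 0.17 (SE), adjusted p = 2.1e-29). Tbx4 was 80.5-fold higher in the HLB (limma, log2 fold change -6.33 ± 0.70 (SE), adjusted p = 0.0075). Its low tail bud values spread widely, and its adjusted p was 0.058 without HLB library 1 and 0.057 without HLB library 3. Isl1, a LIM homeobox factor needed to start the hindlimb field, did not separate the tissues, at 24.9, 11.9 and 19.6 CPM against 16.2 and 13.99 CPM (limma, adjusted p = 0.61).

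Of the progenitor genes of the tail bud, T, Sox2, Nkx1-2, Cdx2, Cdx4 and Wnt3a were at 3 reads or fewer in the HLB. All 15 genes of the list passed the filter on low values (at least 1 CPM in 2 libraries). Called higher in the tail bud were 10, against 8.43% of all genes tested, and 2, Fgf8 and Lin28b, were called higher in the HLB, against 2.40%. Their median log2 fold change was 2.96. Wnt3a, the Wnt ligand that maintains the progenitors, stood at 19.9, 29.2 and 23.3 CPM against 0 and 0 CPM, at least 43.8-fold higher in the tail bud (limma, adjusted p = 6.8e-22). Cdx2 and Cdx4, caudal homeobox factors that drive posterior elongation, followed the same division. Cdx2 stood at 24.99, 33.1 and 31.7 CPM against 0 and 0.359 CPM. Cdx4 stood at 21.4, 29.5 and 26.1 CPM against 0.184 and 0 CPM. Cdx1, the third caudal gene, was not called, at 2.79, 4.15 and 2.80 CPM against 1.47 and 1.97 CPM. Sox2, which marks progenitors with neural potential and the neural tube, stood at 64.6, 62.2 and 61.9 CPM against 0 and 0.179 CPM and was 692-fold (95% counting interval 124 to 27336) higher in the tail bud (limma, adjusted p = 9.2e-28). Nkx1-2, a homeobox gene of neuromesodermal progenitors, stood at 9.26, 11.6 and 12.8 CPM against 0.184 and 0.179 CPM. Evx1, an even-skipped homeobox gene of the posterior streak, was also present in the HLB, at 20.7, 22.2 and 24.4 CPM against 8.28 and 10.4 CPM, and differed 2.34-fold (limma, adjusted p = 2.1e-09). Gdf11, the growth factor that times the trunk to tail transition, stood at 44.5, 45.7 and 46.2 CPM against 41.4 and 49.0 CPM, and the groups overlapped.

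Genes of the presomitic mesoderm and the segmentation clock were called higher in the tail bud for 13 of 18 tested members, against 8.43% of all genes tested. Of the 19 members, 1 was under the filter, and 0 were called higher in the HLB. The median log2 fold change was 2.57, or 2.32 with genes of at most 3 reads set to their fold from reads. Tbx6, the T-box factor that commits cells to paraxial mesoderm, stood at 46.2, 54.9 and 43.5 CPM against 0 and 0.538 CPM and was 177-fold (95% counting interval 60.4 to 859.5) higher (limma, adjusted p = 5.2e-12). Msgn1, a bHLH factor of the presomitic mesoderm, stood at 20.8, 29.9 and 24.6 CPM against 0 and 0 CPM, at least 45.5-fold higher in the tail bud (limma, adjusted p = 3.4e-22). No read of Msgn1 was found in either HLB library, and a level under the floor would not be detected at this depth. The Notch ligand Dll1 stood at 111, 109.8 and 115 CPM against 1.47 and 3.05 CPM (limma, log2 fold change 5.41 ± 0.24 (SE), adjusted p = 9.6e-06). Dll3, a divergent ligand that dampens Notch in the clock, stood at 65.0, 67.6 and 65.1 CPM against 0.184 and 0.538 CPM. Hes7, the oscillating repressor, stood at 15.98, 17.3 and 13.7 CPM against 0.368 and 0.718 CPM. Lfng, the glycosyltransferase that modifies Notch, stood at 53.0, 57.5 and 54.5 CPM against 4.42 and 6.64 CPM. All of these ligands and clock genes were higher in every tail bud library than in both HLB libraries.

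Genes that set the next somite boundary were at a few CPM and followed the same division. Mesp2, a bHLH factor of the anterior presomitic mesoderm, stood at 5.07, 6.29 and 7.94 CPM against 0.184 and 0 CPM. Ripply2, a co-repressor that ends Tbx6 activity there, stood at 3.93, 3.80 and 3.74 CPM against 0 and 0 CPM, at least 6.92-fold higher in the tail bud. Mesp1 stood at 1.90, 1.66 and 1.17 CPM against 0 and 0 CPM, at least 2.86-fold higher. Ripply1 was under the filter. Pcdh8, a protocadherin of forming somites, stood at 74.3, 75.2 and 70.0 CPM against 3.50 and 4.66 CPM (limma, log2 fold change 4.02 ± 0.12 (SE), adjusted p = 5.3e-26). Other members were present in both tissues and not called. Hes1, a general Notch target, stood at 37.8, 35.8 and 34.8 CPM against 32.4 and 42.2 CPM. Snai1, a repressor of epithelial genes, stood at 57.5, 50.4 and 52.6 CPM against 48.9 and 58.8 CPM. The Wnt feedback genes Axin2, Nkd1 and Dkk1 were not called, with log2 fold changes of 0.12, 0.58 and 0.44.

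Somite genes were called higher in the tail bud for 11 of 13 members, against 8.43% of all genes tested. Their median log2 fold change was 3.12. Meox1, a homeobox factor of all somite compartments, stood at 311, 328 and 307 CPM against 12.5 and 14.7 CPM (limma, log2 fold change 4.49 ± 0.07 (SE), adjusted p = 2.0e-34). Its paralogue Meox2, also a gene of limb muscle precursors, did not separate the tissues, at 40.0, 42.7 and 41.1 CPM against 38.1 and 39.8 CPM (limma, adjusted p = 0.47). Pax1 and Pax9 mark the sclerotome, which forms the vertebrae. Pax1 stood at 102, 88.6 and 103 CPM against 5.15 and 3.95 CPM. Pax9 stood at 25.8, 23.1 and 24.9 CPM against 0.368 and 0.179 CPM. Uncx, which marks the posterior part of each somite, stood at 44.3, 40.3 and 41.6 CPM against 0.368 and 0.179 CPM, 154-fold (95% counting interval 52.6 to 749) higher in the tail bud. Tbx18, which marks the anterior part and also proximal limb mesenchyme, was reversed. It stood at 8.88, 9.49 and 9.45 CPM against 60.3 and 67.8 CPM and was 6.598-fold higher in the HLB (limma, adjusted p = 1.2e-20). Foxc1 and Foxc2, forkhead factors needed for somite formation, were called higher in the tail bud, at log2 fold changes of 3.12 and 4.34. The sources used here do not say how much segmented tail the dissected tail bud pieces held.

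**Figure D2:**
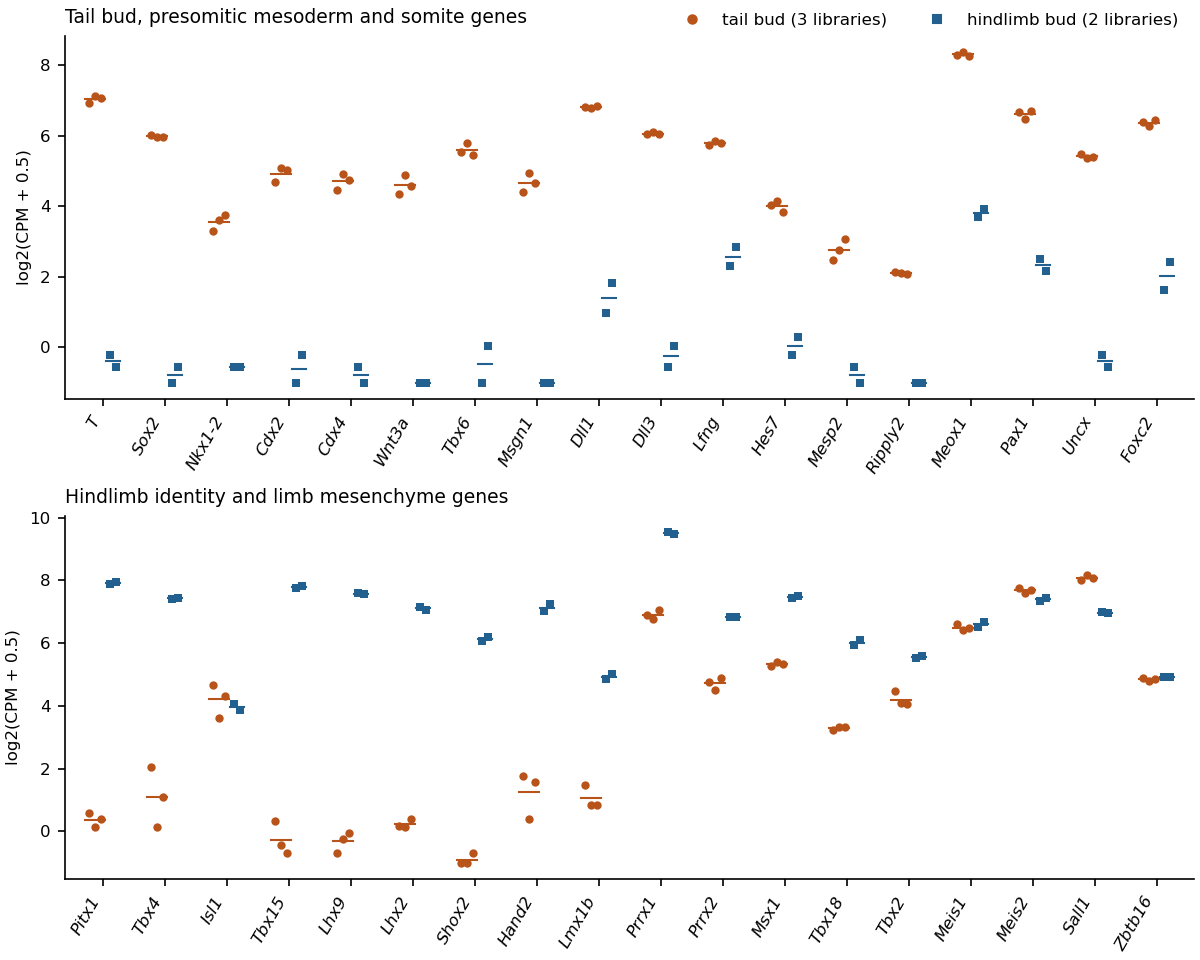
Level of each gene in each of the 5 libraries as log2(CPM + 0.5), with orange circles for the 3 tail bud libraries, blue squares for hindlimb bud libraries 1 and 3, and lines at the means. In the upper panel every gene was called higher in the tail bud. In the lower panel Sall1 was called higher in the tail bud, Isl1, Meis1, Meis2 and Zbtb16 were not called, and the others were called higher in the hindlimb bud.

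Most listed genes of the neural tube and notochord were measured in the tail bud libraries and were at or near 0 in the HLB. Dcx and Tubb3 among neural genes, and Chrd among notochord genes, were above the floor in both HLB libraries. Of 11 tested neural tube genes (of 12), 10 were called higher in the tail bud, against 8.43% of all genes tested. The summed level of the neural tube list was 145 to 183 CPM in the tail bud and 89.2 to 92.2 CPM in the HLB. In the HLB nearly all of the sum was Dcx and Tubb3. Dcx, a microtubule protein known from young neurons, stood at 4.19, 1.305 and 1.40 CPM against 82.1 and 80.7 CPM and was called higher in the HLB (limma, log2 fold change -5.02 ± 0.54 (SE), adjusted p = 0.005). Tubb3, the tubulin of neurons, stood at 27.7, 16.5 and 14.8 CPM against 10.1 and 7.53 CPM (limma, log2 fold change 1.07 ± 0.26 (SE), adjusted p = 0.011), and its call was lost without tail bud library 1 (log2 fold change 0.80) or HLB library 3 (0.87), and with all E10.5 tissues in 1 model (adjusted p = 0.13). The neural genes Sox1, Sox21, Olig2, Nkx6-1, Neurog2 and Hes5 were at 0 in both HLB libraries. Nkx2-2 was also at 0 there, but it was under the filter and near the floor in the tail bud, at 0.634, 0.356 and 0.350 CPM. Neurog2, a proneural bHLH factor, stood at 25.9, 22.7 and 20.0 CPM in the tail bud, and Pax6, a factor of the spinal cord, at 25.5, 24.8 and 24.4 CPM. Of 5 notochord and floor plate genes, 4 were called higher in the tail bud, against 8.43% of all genes tested. Foxa1, Foxa2 and Noto were at 0 in both HLB libraries. The list of 5 summed to 24.9 to 32.6 CPM in the tail bud and 1.97 to 3.13 CPM in the HLB. Noto, a notochord homeobox gene, stood at 3.30, 3.56 and 4.44 CPM. Chrd, the gene of this list that was not called, stood at 4.06, 2.02 and 3.15 CPM against 1.84 and 1.61 CPM (limma, adjusted p = 0.063). Neural crest genes were called higher in the tail bud for 3 of 5 tested members (of 7), against 8.43% of all genes tested. Sox10, a factor of crest and glia, stood at 20.8, 19.0 and 16.9 CPM against 0 and 0.179 CPM. Erbb3 and Tfap2b, crest genes also expressed elsewhere, were in both tissues and not called. The crest list summed to 89.99 to 96.3 CPM in the tail bud and 38.3 to 45.4 CPM in the HLB. Of the 7 hindgut genes, 3 passed the filter and 1 was called, higher in the tail bud, against 8.43% of all genes tested. The list summed to 64.2 to 69.5 CPM against 35.5 to 40.0 CPM. In bulk tissue, fewer cells of a type and less RNA per cell cannot be told apart, and the part these tissues play in the other differences was not tested.

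Blood, vessel and ectoderm genes were present in both tissues. Of 9 tested genes of embryonic red cells, 2 were called higher in the tail bud, against 8.43% of all genes tested. Their summed level was 6084 to 7064 CPM in the tail bud and 2815 to 4033 CPM in the HLB. Hba-a1 and Hba-a2 are near-identical copies that share reads, and Hba-a2 is listed near 0 in every library. HLB library 3 had the lowest sum. Without it neither Hba-x, an embryonic globin, nor Alas2, a heme synthesis enzyme, reached 2-fold, at log2 fold changes of 0.81 and 0.83. Hba-x also lost its call without any 1 of the tail bud libraries, with adjusted p of 0.080 to 0.089 by limma. Without HLB library 1, Hbb-y, Hba-a1 and Slc4a1 were called too, at log2 fold changes of 1.17, 1.15 and 1.22. Of 10 endothelial genes, 0 were called by limma, although 3 passed an adjusted p of 0.05 and 4 an unadjusted p of 0.05 without reaching 2-fold. Their summed level was 452 to 491 CPM against 418 to 437 CPM. Pecam1, an adhesion molecule of vessels, stood at 60.3, 59.3 and 61.7 CPM against 60.3 and 62.1 CPM. Surface ectoderm genes gave 290.3 to 324 CPM in the tail bud and 299.5 to 321 CPM in the HLB. Of the 10, the basal keratins Krt5 and Krt14 were called higher in the HLB, against 2.40% of all genes tested. The mean was higher in the tail bud for 6, among them Cdh1 (log2 fold change 0.64). Krt8, a further keratin, was called higher in the tail bud only under alternatives. These were CPM as deposited (1.06), without tail bud library 1 (1.01) and without HLB library 3 (1.21). Of 4 tested macrophage genes 1 was called, higher in the tail bud, against 8.43% of all genes tested. The macrophage list summed to 17.7 to 26.8 CPM in the tail bud and 7.18 to 9.87 CPM in the HLB. The part these cells play in the other differences was not tested. The heart muscle factor Nkx2-5 was at 0 in all 5 libraries, and of the 6 heart genes only Tnnt2, a troponin, passed the filter and was called, at 7.36, 4.15 and 3.97 CPM against 1.10 and 0.359 CPM. Of the 6 germ cell genes 1 passed the filter and was not called, and Dppa3, a germ cell marker, was under the floor at 0.127, 0.119 and 0 CPM against 0 and 0 CPM.

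Muscle precursor genes differed in direction, with 4 of 6 tested members (of 7) called higher in the tail bud and 1 in the HLB. The shares of all genes tested were 8.43% and 2.40%. Lbx1, a homeobox factor of precursors migrating into limbs, stood at 0.127, 0.237 and 1.05 CPM against 6.44 and 5.02 CPM and was called higher in the HLB (limma, log2 fold change -2.79 ± 0.35 (SE), adjusted p = 2.9e-08). Pax3, of the dermomyotome and dorsal neural tube, stood at 78.8, 95.5 and 81.9 CPM against 14.5 and 11.8 CPM (limma, log2 fold change 2.65 ± 0.10 (SE), adjusted p = 5.7e-22). Myog, of differentiating muscle, stood at 23.7, 19.5 and 15.4 CPM against 1.10 and 0 CPM. The list summed to 180.2 to 208 CPM in the tail bud and 67.9 to 68.9 CPM in the HLB. Of 5 tested genes of intermediate mesoderm (of 7), Pax2 and Ret of the nephric duct were called higher in the tail bud and Wt1, a zinc finger factor, in the HLB. Pax2 stood at 3.93, 4.15 and 4.09 CPM against 0.184 and 0.179 CPM. Wt1 stood at 0.634, 1.07 and 0.7003 CPM against 3.86 and 7.00 CPM.

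Limb mesenchyme factors were called higher in the HLB for 13 of 23 tested members (of 24), against 2.40% of all genes tested. Called higher in the tail bud was 1, Sall1, against 8.43%. The median log2 fold change of the list was -1.09. Some members were near 0 in the tail bud and others were present there. Tbx15, a T-box factor of limb mesenchyme, stood at 0.761, 0.237 and 0.117 CPM against 215 and 224 CPM and was 265-fold higher in the HLB (limma, log2 fold change -8.05 ± 0.23 (SE), adjusted p = 6.9e-19). The LIM homeobox genes Lhx9 and Lhx2, which act between the ridge and the mesenchyme, gave a like pattern. Lhx9 stood at 0.127, 0.356 and 0.467 CPM against 195 and 187 CPM. Lhx2 stood at 0.634, 0.593 and 0.817 CPM against 143 and 133 CPM. Shox2, a factor of the proximal skeleton, stood at 0, 0 and 0.117 CPM against 66.6 and 72.7 CPM, and its single read in the tail bud gives 1733-fold (95% counting interval 310.2 to 68548) higher in the HLB. Hand2, a bHLH factor of the posterior limb bud, stood at 2.92, 0.830 and 2.45 CPM against 129 and 151 CPM (limma, log2 fold change -5.88 ± 0.52 (SE), adjusted p = 0.0033). Lmx1b, which specifies dorsal mesenchyme, stood at 2.28, 1.305 and 1.28 CPM against 28.5 and 31.6 CPM.

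A second set of limb factors was also present in the tail bud at 10 CPM or more. Prrx1, a paired homeobox factor used to mark limb mesenchyme, stood at 118, 108 and 134 CPM against 742 and 713 CPM, 6.06-fold higher in the HLB (limma, adjusted p = 1.1e-17). Prrx2 differed 4.33-fold and Msx1, a homeobox gene of distal mesenchyme, 4.39-fold. Alx4, Tbx2, Msx2 and Irx3 were called at log2 fold changes of -1.55, -1.36, -1.09 and -1.08, and Msx2 fell to -0.92 without HLB library 3. Alx4 lost its call when all E10.5 tissues were fitted in 1 model (limma, adjusted p = 0.12). Meis1 and Meis2, which mark proximal limb and trunk mesoderm, were not called. Meis1 stood at 96.3, 84.2 and 88.8 CPM against 91.6 and 102 CPM (log2 fold change -0.11, 95% interval -0.25 to 0.03). Zbtb16, a zinc finger factor of the hindlimb skeleton, stood at 29.1, 27.5 and 28.7 CPM against 29.8 and 29.96 CPM (log2 fold change -0.07, 95% interval -0.27 to 0.13). Sall1, a zinc finger factor of both outgrowths, stood at 260.1, 286 and 272 CPM against 126 and 124 CPM (limma, log2 fold change 1.12 ± 0.05 (SE), adjusted p = 3.4e-19).

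Of 11 tested genes of the apical ridge and limb ectoderm (of 12), 1 was called higher in the tail bud, against 8.43% of all genes. Called higher in the HLB were 2, Rspo2 and Dlx1, against 2.40%. The tail bud had the lower mean for 8 of the 11, and the median log2 fold change was -0.47. Fgf8 of the ridge is given with the FGF ligands. Dlx1, a homeobox gene, stood at 2.03, 2.14 and 1.52 CPM against 6.26 and 7.89 CPM (log2 fold change -1.66). Rspo2, a secreted Wnt amplifier made by the ridge, stood at 0.761, 0.830 and 0.817 CPM against 29.99 and 30.3 CPM and was 23.5-fold higher in the HLB (limma, adjusted p = 4.4e-19). Trp63, the factor of stratified epithelium, stood at 21.4, 26.3 and 22.3 CPM against 40.8 and 36.4 CPM and did not reach 2-fold. Sp8, a zinc finger factor of the ridge that is also known from the tail bud, stood at 21.4, 26.2 and 25.7 CPM against 11.2 and 16.1 CPM, and was called higher in the tail bud only without HLB library 3 (log2 fold change 1.08). Wnt7a, the dorsal ectoderm ligand, stood at 13.2, 13.6 and 10.51 CPM against 13.98 and 10.2 CPM, with overlapping groups, and En1, the ventral ectoderm factor, at 4.44, 2.61 and 1.87 CPM against 4.23 and 3.95 CPM.

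The T-box family divided by tissue. Of 17 members, 10 passed the filter, 3 were called higher in the tail bud (T, Tbx6 and Tbx22) and 4 higher in the HLB (Tbx2, Tbx4, Tbx15 and Tbx18). All genes tested gave shares of 8.43% and 2.40%. Tbx22, a T-box repressor known from the palate, stood at 2.28, 2.14 and 2.57 CPM against 0 and 0 CPM, at least 4.22-fold higher in the tail bud. Tbx2 stood at 21.6, 16.5 and 16.1 CPM against 45.4 and 47.7 CPM. Tbx3, its paralogue, stood at 27.4, 18.3 and 28.4 CPM against 39.6 and 53.5 CPM and was not called (limma, log2 fold change -0.91 ± 0.26 (SE), adjusted p = 0.046), below 2-fold. It was called, at log2 fold changes of -1.02 and -1.13, without tail bud library 3 or without HLB library 1. Tbx5, the forelimb paralogue of Tbx4, was near or under the floor in every library, at 0.381, 0.119 and 0.233 CPM against 0.184 and 0.179 CPM. Mga, a broadly expressed member, stood at 142, 163 and 167 CPM against 142 and 141 CPM (log2 fold change 0.15, 95% interval 0.02 to 0.28).

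Hox genes showed a pattern by position in the clusters. All 39 were tested, 21 were called higher in the tail bud, 3 in the HLB and 15 neither way, and the median log2 fold change was 1.31. Over all genes tested, 8.43% were called higher in the tail bud and 2.40% in the HLB. The most anterior genes of Hoxb and Hoxd were near 0 in the HLB. Hoxb1 stood at 35.4, 36.4 and 40.9 CPM against 0 and 0 CPM, at least 68.0-fold higher in the tail bud (limma, adjusted p = 3.5e-25). Hoxd1 stood at 21.3, 21.6 and 22.3 CPM against 0.184 and 0.359 CPM. Hoxd3 and Hoxd4 differed 17.3-fold and 6.93-fold, but these 2 genes share exons in a joint transcript of the annotation, and reads could be split between them.

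The whole Hoxb cluster was higher in the tail bud, with all 10 genes called. Against the early HLB in place of the E10.5 HLB, Hoxb1, Hoxb2, Hoxb3 and Hoxb13 kept their calls and the other 6 lost them, at log2 fold changes of 0.15 to 0.89. Hoxb2 to Hoxb8 had log2 fold changes of 1.39 to 2.72. Hoxb9, which acts at thoracic to lumbar levels, stood at 97.7, 100.4 and 104 CPM against 16.4 and 15.4 CPM (limma, log2 fold change 2.62 ± 0.08 (SE), adjusted p = 3.0e-25). Hoxb13, the gene at the posterior end of the cluster and a brake on tail growth, stood at 55.1, 69.6 and 49.96 CPM against 0 and 0 CPM, at least 105-fold higher in the tail bud (limma, adjusted p = 2.2e-27). The posterior end of Hoxc was divided in the same way. Hoxc12 stood at 30.3, 29.8 and 25.8 CPM against 0.184 and 0 CPM. Hoxc13 stood at 81.7, 90.4 and 80.2 CPM against 1.29 and 1.08 CPM (limma, log2 fold change 5.65 ± 0.13 (SE), adjusted p = 4.7e-29). Their neighbour Hoxc10, a lumbosacral and hindlimb gene, did not separate the tissues, at 131, 140.0 and 145 CPM against 133 and 141 CPM (log2 fold change 0.02, 95% interval -0.11 to 0.14), and Hoxc11 stood at 22.2, 18.6 and 18.0 CPM against 11.6 and 13.3 CPM. The group 13 genes of Hoxa and Hoxd were not called. Hoxa13 stood at 11.8, 15.5 and 11.8 CPM against 14.2 and 10.4 CPM, with overlapping groups, and Hoxd13 at 93.6, 100.4 and 103 CPM against 77.6 and 74.1 CPM (log2 fold change 0.38, 95% interval 0.24 to 0.52).

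Only Hoxa10, Hoxa11 and Hoxd9 among the 39 were called higher in the HLB. Hoxa11, a gene of the middle limb segment, stood at 52.3, 46.0 and 54.9 CPM against 154 and 137 CPM (limma, log2 fold change -1.51 ± 0.08 (SE), adjusted p = 3.2e-18). Hoxa10 stood at 84.1, 88.1 and 99.9 CPM against 231 and 211 CPM (limma, log2 fold change -1.28 ± 0.07 (SE), adjusted p = 2.0e-17). Against the early HLB, Hoxa10 and Hoxa11 lost their calls, at log2 fold changes of -0.60 and -0.93. Hoxd9 was at the 2-fold limit, at 26.3, 26.3 and 27.5 CPM against 54.5 and 56.5 CPM (limma, log2 fold change -1.04 ± 0.09 (SE), adjusted p = 4.8e-12), and fell short of it on CPM as deposited, at a log2 fold change of -0.96. Hoxd10 to Hoxd13, which pattern the limb from its posterior side, were not called. Hoxd12 stood at 87.3, 93.7 and 96.3 CPM against 48.4 and 56.9 CPM (limma, log2 fold change 0.81 ± 0.07 (SE), adjusted p = 2.1e-11), below 2-fold although the groups did not overlap. Hoxa4 and Hoxa6 lost their calls at the 2-fold limit without HLB library 3 (log2 fold change 0.86) and without tail bud library 1 (0.999), respectively. Antisense genes overlap exons of Hoxa11 (35.0% of its exon bases) and of Hoxb3 (52.9%), and the strand setting of the counting is not stated.

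**Figure D3:**
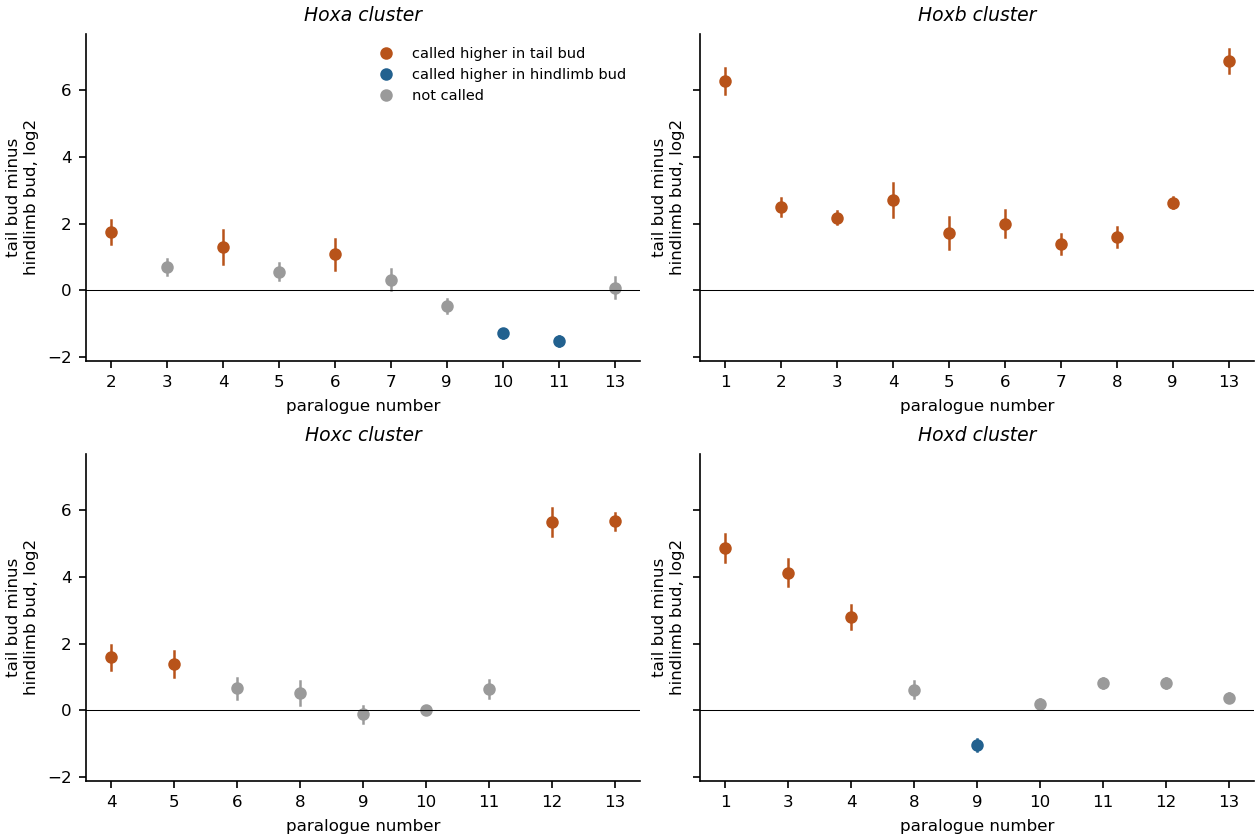
Tail bud minus hindlimb bud log2 fold change of CPM + 0.5 for the Hox genes reported here, one panel per cluster, ordered by paralogue number, with vertical lines for the 95% interval. Orange marks genes called higher in the tail bud, blue those called higher in the hindlimb bud and grey the others, and in Hoxb and Hoxc the genes at the posterior end stand above those in the middle.

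FGF ligands were divided between the tissues. Of 8 tested ligands (of 9), 5 were called higher in the tail bud, against 8.43% of all genes tested. Called higher in the HLB were 2, Fgf8 and Fgf10, against 2.40%. Fgf8, which is made by the apical ridge and by tail bud mesoderm, stood at 10.9, 9.61 and 11.2 CPM against 42.3 and 39.8 CPM and was 3.76-fold higher in the HLB (limma, log2 fold change -1.91 ± 0.12 (SE), adjusted p = 2.0e-15). Fgf10, the mesenchymal ligand of limb outgrowth, stood at 1.78, 1.54 and 1.63 CPM against 41.0 and 40.5 CPM (19.2-fold, limma, adjusted p = 2.1e-20). Fgf17 and Fgf18, relatives of Fgf8, were higher in the tail bud. Fgf17 stood at 17.5, 21.1 and 25.2 CPM against 1.10 and 1.97 CPM (limma, log2 fold change 3.44 ± 0.20 (SE), adjusted p = 1.3e-16). Fgf18 stood at 12.3, 16.4 and 11.6 CPM against 1.66 and 0.538 CPM. Fgf3, needed for tail growth, stood at 9.77, 13.3 and 8.99 CPM against 0 and 0.179 CPM. Fgf15, also a gene of neural tissue, stood at 26.3, 36.7 and 28.4 CPM against 0.368 and 0.179 CPM. Fgf9, a ligand of mesoderm and epithelia, was called at a log2 fold change of 1.04 and lost its call without HLB library 3 (0.80) or without tail bud library 2 (0.79) or 3 (0.91). Fgf4, a ligand of both outgrowths, was low and not called, at 3.04, 4.03 and 2.80 CPM against 5.34 and 3.77 CPM.

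FGF feedback genes are induced by FGF signalling, and most of them restrain it. Of 9 members, 4 were called higher in the HLB, against 2.40% of all genes tested. In the tail bud 0 were called, and the median log2 fold change of the list was -0.72. Dusp6, a phosphatase of ERK, stood at 109, 112 and 125 CPM against 284 and 245 CPM (limma, log2 fold change -1.19 ± 0.07 (SE), adjusted p = 1.6e-15). Il17rd, a membrane antagonist, stood at 92.7, 107 and 110.4 CPM against 259 and 231 CPM (limma, log2 fold change -1.24 ± 0.07 (SE), adjusted p = 3.2e-15). Spry1, a Sprouty inhibitor, stood at 21.9, 24.0 and 24.2 CPM against 50.8 and 57.6 CPM. Etv5, an ETS factor, stood at 68.3, 78.3 and 72.4 CPM against 162 and 147 CPM. Etv5 fell just short of 2-fold on CPM as deposited. Spry2 and Spred2 did not differ past the threshold, at log2 fold changes of -0.19 and 0.16.

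Different retinoic acid enzymes were high in the 2 tissues. Of 12 tested genes (of 14), 4 were called higher in the tail bud and 4 in the HLB. Shares over all genes tested were 8.43% and 2.40%. Cyp26a1, the retinoic acid-degrading enzyme of the tail bud, stood at 17.0, 20.4 and 20.1 CPM against 2.58 and 1.79 CPM (limma, log2 fold change 2.88 ± 0.18 (SE), adjusted p = 5.1e-16). Cyp26b1, the related enzyme of the distal limb, stood at 5.58, 4.75 and 3.27 CPM against 169.6 and 175 CPM and was 35.0-fold higher in the HLB (limma, log2 fold change -5.13 ± 0.15 (SE), adjusted p = 2.7e-18). Aldh1a2, the main synthesizing enzyme of somites and trunk, stood at 92.9, 75.8 and 85.8 CPM against 15.8 and 25.1 CPM (limma, log2 fold change 2.06 ± 0.23 (SE), adjusted p = 0.0035). Its call was lost against the early HLB (log2 fold change 0.47). Dhrs3, which reduces retinal, and Aldh1a3, a second synthesizing enzyme, were called at log2 fold changes of 1.01 and 1.299. Without 1 HLB library these fell to 0.81 (Dhrs3, without library 3) and 0.66 (Aldh1a3, without library 1). Dhrs3 also fell short without tail bud library 1, at 0.94. Receptors and binding proteins were higher in the HLB where called. Rarg stood at 69.5, 83.6 and 80.1 CPM against 197 and 208 CPM (limma, log2 fold change -1.38 ± 0.07 (SE), adjusted p = 3.5e-18). Rarb, itself a target of retinoic acid, stood at 12.2, 8.30 and 8.29 CPM against 32.6 and 36.6 CPM. Exons of Rarb overlap the oppositely oriented Top2b over 34.1% of their bases. Crabp1, a cytoplasmic binding protein, stood at 137, 138 and 129 CPM against 419 and 388 CPM, and its call was lost when all E10.5 tissues were fitted in 1 model (limma, adjusted p = 0.063). Rara, Crabp2 and Stra6, the uptake receptor, were not called.

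**Figure D4:**
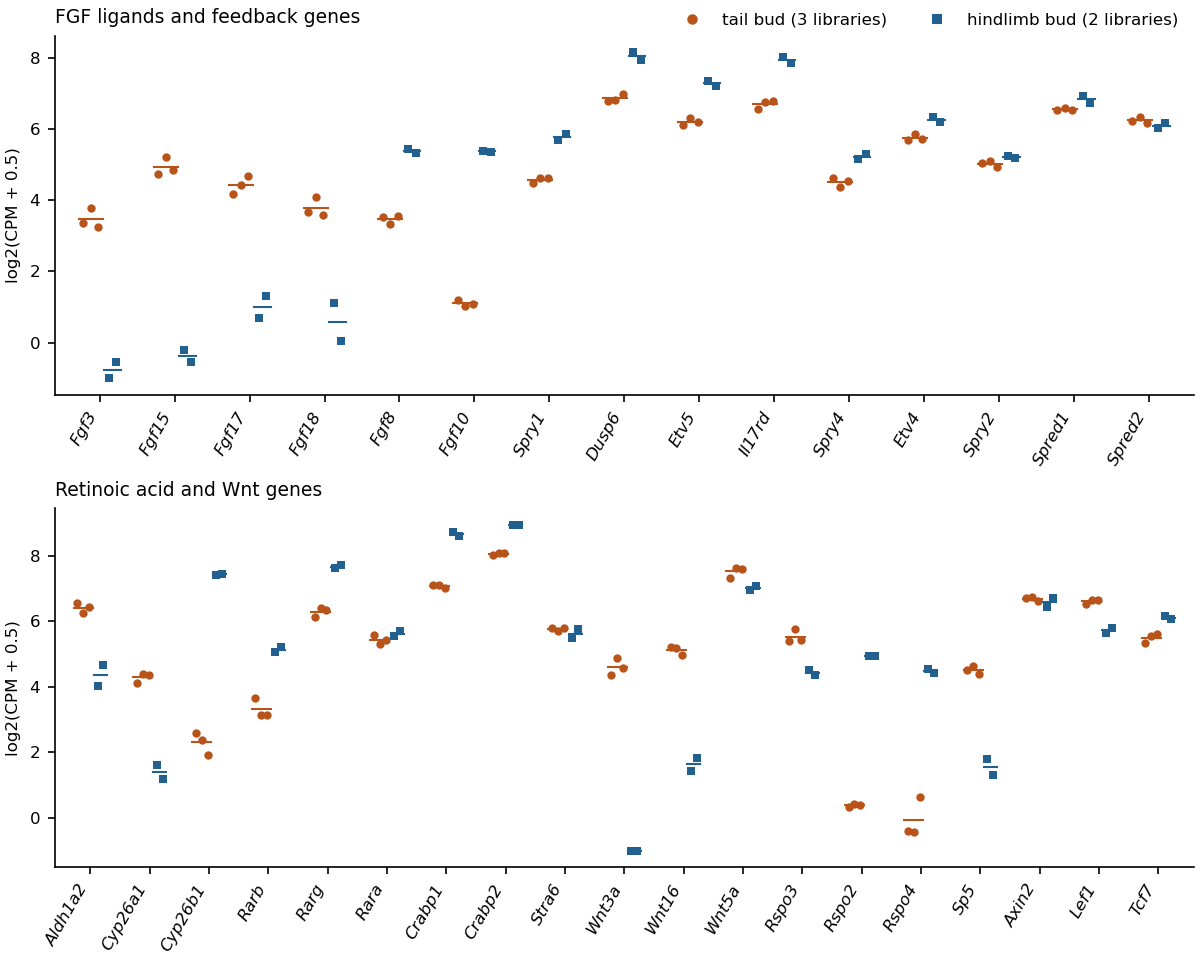
Level of FGF genes (upper panel) and of retinoic acid and Wnt genes (lower panel) in each library as log2(CPM + 0.5), with orange circles for the 3 tail bud libraries, blue squares for hindlimb bud libraries 1 and 3, and lines at the means. Fgf8, Fgf10, Dusp6, Cyp26b1, Rspo2 and Rspo4 are higher in the hindlimb bud, and Fgf17, Cyp26a1, Aldh1a2, Wnt3a and Sp5 in the tail bud, while Axin2 is nearly level.

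Wnt ligands were called higher in the tail bud for 7 of 17 tested members (of 19), against 8.43% of all genes tested. In the HLB 1 was called, Wnt2, against 2.40%. Beside Wnt3a, Wnt16 stood at 36.3, 35.7 and 30.9 CPM against 2.21 and 3.05 CPM (limma, log2 fold change 3.49 ± 0.15 (SE), adjusted p = 1.2e-20). Wnt1, a ligand of the dorsal neural tube, stood at 8.37, 7.71 and 7.47 CPM against 0 and 0 CPM. Wnt5a, a non-canonical ligand that drives elongation of both outgrowths, stood at 159, 198 and 194 CPM against 122 and 134 CPM and did not reach 2-fold (log2 fold change 0.52, 95% interval 0.33 to 0.70). Of the secreted amplifiers, Rspo3 was higher in the tail bud at 41.9, 53.6 and 42.7 CPM against 22.1 and 19.9 CPM and Rspo4 in the HLB at 0.254, 0.237 and 1.05 CPM against 23.0 and 20.8 CPM. Without tail bud library 2, Rspo3, Wnt8a and Wnt9b fell short of 2-fold, at log2 fold changes of 0.996, 0.986 and 0.944. Among 10 canonical targets, 2 were called, both in the tail bud, against 8.43% of all genes tested. Sp5, a zinc finger target and repressor of Wnt signalling, stood at 22.5, 24.2 and 20.3 CPM against 2.94 and 1.97 CPM (limma, log2 fold change 2.96 ± 0.17 (SE), adjusted p = 6.5e-17). Axin2, the most general reporter of the pathway, stood at 104, 106 and 98.5 CPM against 86.5 and 104 CPM (log2 fold change 0.12, 95% interval -0.02 to 0.26), and the nuclear factor Lef1 at 90.7, 101 and 98.9 CPM against 49.7 and 54.7 CPM.

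Notch genes were called higher in the tail bud for 9 of 17 members, against 8.43% of all genes tested. In the HLB 0 were called. The receptor Notch1 stood at 201, 189 and 198 CPM against 52.6 and 55.1 CPM (limma, log2 fold change 1.85 ± 0.06 (SE), adjusted p = 2.7e-24), whereas Notch2 and Notch3 had log2 fold changes of 0.31 and -0.17. The target Heyl stood at 40.0, 28.4 and 33.5 CPM against 3.13 and 3.59 CPM and the feedback gene Nrarp at 86.6, 88.6 and 85.1 CPM against 28.3 and 26.0 CPM. Antisense annotation covers 79.4% of Nrarp exon bases, 31.8% of those of Hes5 and 20.6% of those of Dll1, and whether the counting separated the 2 strands is not stated. Jag1, a ligand of limb ectoderm and mesenchyme, stood at 44.9, 40.7 and 43.8 CPM against 23.7 and 27.6 CPM. Hey1, another target, stood at 48.0, 54.2 and 50.8 CPM against 48.2 and 44.5 CPM (log2 fold change 0.14, 95% interval -0.03 to 0.30).

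Hedgehog genes were called higher in the tail bud for 3 of 11 tested members (of 13) and in the HLB for 1. Among all genes tested the shares were 8.43% and 2.40%. Shh, made by the notochord, floor plate and the posterior limb margin, stood at 26.5, 23.3 and 28.9 CPM against 13.8 and 8.61 CPM (limma, log2 fold change 1.22 ± 0.15 (SE), adjusted p = 5.4e-07). The pathway targets Ptch1 and Hhip were called at log2 fold changes of 1.07 and 1.86, while the target Gli1 stood at 79.4, 64.7 and 69.5 CPM against 51.0 and 50.4 CPM, below 2-fold. Gli3, the main repressor of the pathway in limbs, stood at 135, 135 and 135 CPM against 274 and 269 CPM, at the 2-fold limit, and fell short of it on CPM as deposited, at a log2 fold change of -0.93. It also fell just short without HLB library 1 and with median-of-ratios scaling, at -0.993 and -0.994. The Shh and Ptch1 calls each fell below 2-fold when 1 HLB library was left out (library 3 for Shh, at a log2 fold change of 0.90, and library 1 for Ptch1, at 0.96).

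BMP genes were called in both directions, with 3 of 15 called in each direction. All genes tested gave 8.43% in the tail bud and 2.40% in the HLB. Grem1, the BMP antagonist that sustains the apical ridge, stood at 6.22, 5.34 and 4.32 CPM against 40.8 and 37.5 CPM and was 6.91-fold higher in the HLB (limma, adjusted p = 2.4e-17). Bmp4 stood at 24.1, 24.8 and 25.4 CPM against 59.4 and 73.4 CPM (2.63-fold, limma, adjusted p = 6.5e-15). Fst, a follistatin that binds activins, stood at 16.4, 15.5 and 17.0 CPM against 0.920 and 0.538 CPM. Nog, an antagonist of the notochord and somites, stood at 4.82, 5.22 and 6.42 CPM against 1.29 and 0.359 CPM. Different antagonists were thus higher in each tissue. The BMP-induced Id1, Id2 and Id3 were not called, at log2 fold changes of -0.43, -0.07 and 0.23.

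Of 20 tested matrix and cartilage genes (of 21), 3 were called higher in the tail bud and 4 in the HLB. The shares of all genes tested were 8.43% and 2.40%. Col1a2, a chain of type I collagen, stood at 139, 102 and 124 CPM against 379.7 and 415 CPM (limma, log2 fold change -1.72 ± 0.15 (SE), adjusted p = 0.0015). Col12a1, a collagen of tendon and fascia, stood at 4.95, 5.22 and 5.37 CPM against 19.9 and 17.4 CPM. Has2, the hyaluronan synthase, stood at 57.5, 64.4 and 67.1 CPM against 19.5 and 15.97 CPM (limma, log2 fold change 1.80 ± 0.10 (SE), adjusted p = 5.4e-18). Tnc, tenascin C, stood at 14.1, 14.6 and 13.1 CPM against 3.68 and 3.23 CPM. Against the early HLB, Col1a2 and Tnc lost their calls, at log2 fold changes of -0.28 and 0.23. Col3a1 and Runx2 were also called higher in the HLB, and Col3a1, a fibrillar collagen, lost its call without either HLB library, with adjusted p of 0.086 and 0.088 by limma, and without tail bud library 2 (log2 fold change -0.97) or 3 (adjusted p = 0.060). Runx2, the factor of bone formation, lost its call with all E10.5 tissues in 1 model (limma, adjusted p = 0.23). Sox9, the factor of cartilage condensation and also of notochord and neural crest, did not separate the tissues, at 78.9, 57.9 and 58.0 CPM against 74.7 and 89.0 CPM (limma, adjusted p = 0.18).

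Glucose transporters were higher in the tail bud, but the enzymes of glycolysis reached less than 2-fold. Of 20 tested genes, 2 were called, Slc2a1 and Slc2a3, which is near the 8.43% of all genes tested. The adjusted p alone was passed by 19, against 42.6% of all genes tested. The median log2 fold change was 0.29. Slc2a1 stood at 264, 273 and 268 CPM against 122 and 132 CPM (limma, log2 fold change 1.08 ± 0.05 (SE), adjusted p = 9.5e-19). Slc2a3 stood at 312, 384 and 375 CPM against 129.5 and 131 CPM (limma, log2 fold change 1.45 ± 0.07 (SE), adjusted p = 1.5e-11). Hk2, the hexokinase, stood at 101, 107 and 113 CPM against 56.7 and 61.9 CPM. Gapdh stood at 735, 726 and 696 CPM against 688 and 722 CPM. Ldhb, the lactate dehydrogenase chain of oxidative tissue, stood at 124, 126 and 121 CPM against 223 and 224 CPM, higher in the HLB and below 2-fold.

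Of 7 heterochronic genes, which time development through let-7 and its targets, 1 was called higher in the HLB, against 2.40% of all genes tested. Lin28b, a block to let-7 maturation, stood at 96.5, 95.02 and 106 CPM against 216 and 193 CPM and was 2.05-fold higher in the HLB (limma, log2 fold change -1.04 ± 0.06 (SE), adjusted p = 2.8e-16). Its call was lost on CPM as deposited and without HLB library 1, each at a log2 fold change of -0.96. Lin28a, its paralogue, stood at 96.5, 123 and 131 CPM against 109 and 92.6 CPM with overlapping groups, and Hmga2, a let-7 target, at 880.3, 919 and 952 CPM against 1447 and 1392 CPM, below 2-fold.

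**Figure D5:**
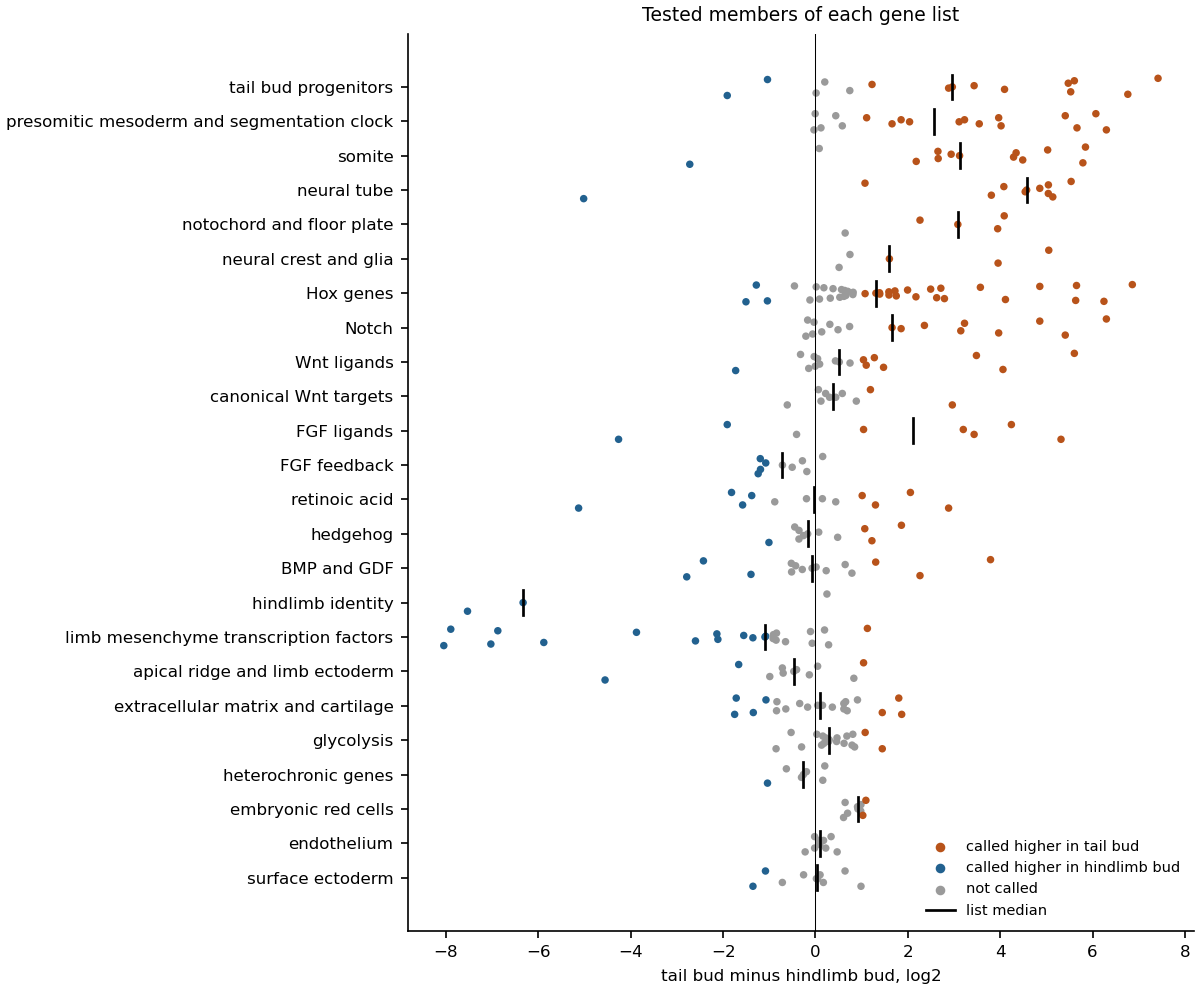
Tail bud minus hindlimb bud log2 fold change of each tested member of 24 gene lists, with black bars for list medians and colours for genes called higher in the tail bud (orange), higher in the hindlimb bud (blue) or not called (grey). Medians of the tail bud, somite and neural tube lists lie between 2.57 and 4.57, that of limb mesenchyme at -1.09, and that of endothelium near 0.

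Among listed genes, 97 met a rule for shared genes, under which every library held at least 16 CPM and the 95% interval lay within 2-fold. They include Hoxa9, Hoxc10, Hoxd10 to Hoxd13, Meis1, Meis2, Snai1, Hes1, Axin2, Wnt5a, Gdf11 and Lin28a. Such an interval bounds a difference and does not show equal levels.

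The 15 largest differences in each direction, among called genes of at least 16 CPM in the higher tissue with no overlap, were led by T, Zic1, Miat, Hoxb13 and Sox2 for the tail bud and by Tbx15, Lhx9, Pitx1, Shox2 and Lhx2 for the HLB. They were drawn from 334 and 165 genes. Zic1, a zinc finger factor of dorsal neural tube and somite, stood at 76.1, 53.0 and 50.8 CPM against 0 and 0 CPM. All reads of Zic1 in these 5 libraries were thus in the tail bud. Foxb1, a forkhead gene, stood at 39.1, 46.9 and 42.7 CPM against 0.184 and 0 CPM. Cer1, a secreted antagonist found in the anterior presomitic mesoderm, stood at 27.5, 35.4 and 29.8 CPM against 0 and 0 CPM. Miat, a long noncoding RNA, stood at 91.7, 44.1 and 49.5 CPM against 0 and 0 CPM, with tail bud library 1 well above the other two. On the HLB side, Capn6, a calpain-like protein of mesenchyme, stood at 34.0, 33.7 and 33.0 CPM against 1134 and 1112 CPM (limma, log2 fold change -5.04 ± 0.06 (SE), adjusted p = 1.3e-38). Dcx, described with the neural genes, was also among these 15. The transcripts C130021I20Rik and 5930403L14Rik, known by clone names, stood at 6.597, 6.52 and 3.97 CPM against 170.2 and 175 CPM and at 7.23, 7.24 and 5.25 CPM against 157 and 178 CPM.

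HLB library 2, which entered no test above, was compared where it holds values. Of the 756 genes called higher in the tail bud outside its lost regions, 746 (98.7%) lay below all 3 tail bud libraries in it. Of 202 genes called higher in the HLB, 200 (99.0%) lay above all 3. These genes were picked as at least 2-fold apart with 2 libraries of the same tissue. Between the tissues 61.3% of all genes tested did not overlap. Shares this high were therefore likely from the start and are no independent test of the calls. HLB library 2 held 238 CPM of Pitx1, 158 of Tbx4, 205 of Tbx15, 38.1 of Fgf8, 0.181 of T, 0.181 of Wnt3a and 134 of Hoxc10. Of these genes, all but Hoxc10, which did not separate the tissues, lay on the HLB side of every tail bud library.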

How the data were processed

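Tail bud (n = 3) and hindlimb bud (n = 2) libraries of E10.5 embryos were analysed, with groups taken from the sample labels. The authors made stranded mRNA libraries, aligned the reads to mm10 by HISAT, and obtained gene-level values by Cuffdiff. The deposited values are CPM, 1 per gene and library, for 23279 genes, and sum to 1000000 per library. The processing notes list HISAT2 2.0.4, Cufflinks 2.1.1 and edgeR 3.16.2. The strand setting of the counting is not given in the sources used here.

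Libraries were scaled by a trimmed mean of log ratios over the 5 libraries (30% of ratios and 5% of intensities trimmed at each end). The filter on low values kept a gene that reached 1 CPM in 2 of the libraries. Differences in log2(CPM + 0.5) were fitted by limma 3.58.1 (trend, robust; R 4.3.3), with Benjamini-Hochberg adjustment over all 13183 genes. The tests were checked on simulated data. The deposited values are not counts, so no count test was run. Depth was 5648200 to 8443180 reads, inferred from the spacing of low values. Of all values above 0 in a library, 98.8% to 99.1% were whole reads within 0.05 of a read. Genes named are those of 31 lists or of functional groups, the 15 largest called differences in each direction with at least 16 CPM, and listed genes shared between tissues. Single values of some genes are not reported here. The members and lists were chosen with earlier results of these data known. Promoters are those of RefSeq (GRCm38.p6), and exon overlaps are from GENCODE vM21. Alternatives were other scalings, filters, pseudocounts, models and libraries. Figures were drawn with matplotlib 3.10.9.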

Additional observations from a re-analysis of the deposited data

How the results depend on the processing

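Genes called higher in the tail bud were 1111 and in the HLB 316. With a mean of at least 5 CPM required, 10761 genes were tested, and 542 and 198 were called. The tail bud calls fell by a larger share than the genes tested, so many of them rest on genes of low level. With HLB library 2 entered as listed, lost chromosomes included, 833 and 187 were called. Both counts stayed within 1.5 times under every other alternative run, with no filter (1239 and 343), a pseudocount of 0.1 (1233 and 348) or 1 (910 and 277), CPM as deposited (1211 and 284), the early HLB in place of E10.5 (1056 and 346) and library 2 added without its lost region (1139 and 319). Leaving out 1 library gave 1056 to 1145 and 266 to 340. Deviations of same-numbered libraries from their tissue means correlated with r of -0.06 and -0.02. With 2 HLB libraries their deviations mirror each other, so these values cannot decide whether the numbers mark pairs. The numbers were not taken as pairs, and the replicate block gave 1107 and 321. Tests of edgeR and DESeq2 on recovered reads were not run, because the values are not counts.

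Of 165 named genes called, those that could be tested under an alternative kept their direction, except 7 with library 2 as listed and Col12a1 against the early HLB. Tested were 136 with a mean of at least 5 CPM and all but 7 or fewer elsewhere. Calls lost with the same direction were 29 against the early HLB, 30 with library 2 as listed and at most 10 elsewhere. As listed, Msx1 (0.72), Irx3 (1.33), Hoxa10 (1.68), Hoxa11 (1.26), Crabp1 (1.68), Col1a2 (1.53) and Col12a1 (0.029) changed sign on the log2 scale, and all 7 lie in the lost region. Against the early HLB, Col12a1 (0.52) changed sign, as did Cdx1 (-1.30), Lin28a (-1.72), Wnt7a (-1.32), Hoxc8 (-1.01), Boc (1.11) and Sox9 (1.02), which were not called at E10.5, and the cause was not tested. Depth limits genes under about 0.5 CPM, and 2 HLB libraries limit the precision of every difference.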

Other observations

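Early HLB libraries, whose labels give E10.0, entered no test of the tail bud against the E10.5 HLB. The paper dates them between E10.0 and E10.5. In CPM on the same scale (mean ± SD, n = 3), Hoxb9 stood at 58.0 ± 16.7, against 97.7, 100.4 and 104 in the tail bud and 16.4 and 15.4 in the E10.5 HLB. Hoxd12 stood at 16.2 ± 4.31 and Hoxa13 at 3.30 ± 0.384 in the early HLB, below both E10.5 tissues. Lin28a stood at 386 ± 62.2 in the early HLB, above both E10.5 tissues. The early libraries were sequenced more deeply, at 19642074 to 21001131 reads, and stage and sequencing cannot be told apart in them.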
